A study of Mus musculus with 7 samples.

Results

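Dense clusters of open chromatin were described in blood stem cells from old mice that carried a control or a Runx3 lentivirus. A peak is a short stretch of DNA where the transposase used in ATAC-seq cuts often because the chromatin is open. A peak on chromosomes 1 to 19 was counted as a dense-cluster member when it was narrower than 1200 bases and had 8 or more other peak midpoints within 25 kb on either side. This rule used positions and widths, not levels in the libraries, and took 11604 of the 98723 peaks in the table, or 11.8%. Members whose midpoints followed each other within 25 kb were merged into 1735 domains. A stretch near the end of chromosome 8 was left out, with 76 peaks that met the rule. Coordinates are those of the table, in the mm9 build.

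The cells came from C57BL/6 donors aged 24 months. Their bone marrow was enriched for cKit-positive cells, infected with a control lentivirus or with a lentivirus expressing Runx3, and given to lethally irradiated mice. After 16 weeks, hCD2+ CD45.2+ cells with the surface markers of long-term stem cells (LSK, Flt3-, CD48- and CD150+) were sorted and profiled by Omni-ATAC-seq, giving 4 control libraries (1, 2, 3 and 4) and 3 Runx3 libraries (1, 3 and 4). Whether each library is its own animal is not stated in the labels, and the spread behind all p-values may thus be technical. The promoter that drives Runx3 in the vector is not given in the sources used here.

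Enhancers are stretches of DNA that bind transcription factors and raise the activity of a gene, often from a distance. Groups of enhancers packed close together are known at genes that define a cell type, where they hold much of the cell's factor binding and active histone marks. Open sites also crowd together where many promoters lie side by side, so crowding alone does not tell these apart. Runx3 and its relatives Runx1 and Runx2 bind DNA together with the partner Cbfb, and Runx1 is a known occupant of blood enhancers. No histone mark was measured, and no gene annotation of the mm9 build was used. Whether a domain is an enhancer group or a row of promoters was therefore not analysed here. They are called dense peak clusters or domains below. The sorted cell type could not be checked against marker genes for the same reason, and no sequences are shown.

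Total counts in peaks ran from 2188113 to 3758422 in the control libraries and from 1738164 to 2576715 in the Runx3 libraries, so the Runx3 libraries were shallower on average. Control 1 stood apart from the other controls, with 26.7% of its counts in broad peaks of 1200 bases or more, where the other controls had between 24.5% and 24.8%. Levels are given as CPM, counts of a peak relative to the library's TMM-scaled total (TMM is the trimmed mean of M-values). That total holds only the counts in peaks that passed the low-count filter of the test. On this scale 3 reads come to 0.863 CPM in the deepest library and 1.87 CPM in the shallowest. In an earlier analysis of these data, control 1, control 2 and Runx3 1 were found to share a small group of peaks missing from the other 4 libraries. These groups of libraries are called set 1 and set 2 below. A search for peaks where the lowest library of one set lay at least 8-fold above the highest of the other, after 0.5 CPM was added to each value, gave 57 peaks, and 0 of them were dense-cluster members. Members with a smaller gap between the sets exist, and one is described below.

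Members were moderately open sites. Their median width was 376 bases, close to the 372 bases of other narrow peaks of the same chromosomes, and their median level was 6.48 CPM against 4.19 CPM. Isolated narrow peaks, which had no other midpoint within 25 kb, had a median of 2.99 CPM, and broad peaks 48.5 CPM. Per kilobase of peak, the medians were 16.4 CPM for members, 10.6 CPM for other narrow peaks and 8.47 CPM for isolated ones. Peaks were called on reads of the same kind, so level and the number of peaks found nearby are not independent, and no test was made of these differences. Peaks just inside the rule, with 8 neighbours, numbered 4541 with a median of 5.65 CPM. Those just outside, with 7, numbered 6475 with a median of 4.99 CPM. Both of these medians are relative to all counts in peaks, without the low-count filter and TMM, and so run lower than the other levels given here.

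Within the members, the level was higher in denser surroundings. The 4541 members with 8 neighbours had a median of 6.16 CPM, the 4964 with 9 or 10 neighbours 6.39 CPM, the 1529 with 11 or 12 neighbours 7.0 CPM, and the 570 with 13 or more neighbours 8.04 CPM. Width went the other way, from a median of 392 bases in the first class to 361 bases in the last. The most crowded member had 21 neighbours, where the median member had 9 and the median peak of the table had 4.

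Domains were mostly small, with a long tail. The median domain held 5 members and spanned 22.8 kb. There were 303 domains with 1 member, 491 with 2 to 4, 499 with 5 to 9 and 442 with 10 or more, and the last class held 55.0% of all members. Neighbouring members of a domain lay a median of 3250 bases apart from midpoint to midpoint. In the 941 domains of 5 or more members, member peaks covered a median of 11.2% of the span, and the strongest member gave a median of 30.5% of the domain's summed level. That share ran from 8.25% to 85.3%, so some domains were even rows of sites and others were 1 strong site among weak ones. Broad peaks were no members, but 278 of the 5048 broad peaks of these chromosomes lay inside the span of a domain, in 229 domains.

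Summed levels were concentrated in few domains. The median summed level was 46.4 CPM and the highest 1125 CPM. The 174 strongest domains held 35.8% of all domain counts and 26.1% of the members, with a median of 16 members each. All spans together came to 46.2 Mb, or 1.91% of the extent of chromosomes 1 to 19 between their first and last peaks.

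**Figure D1:**
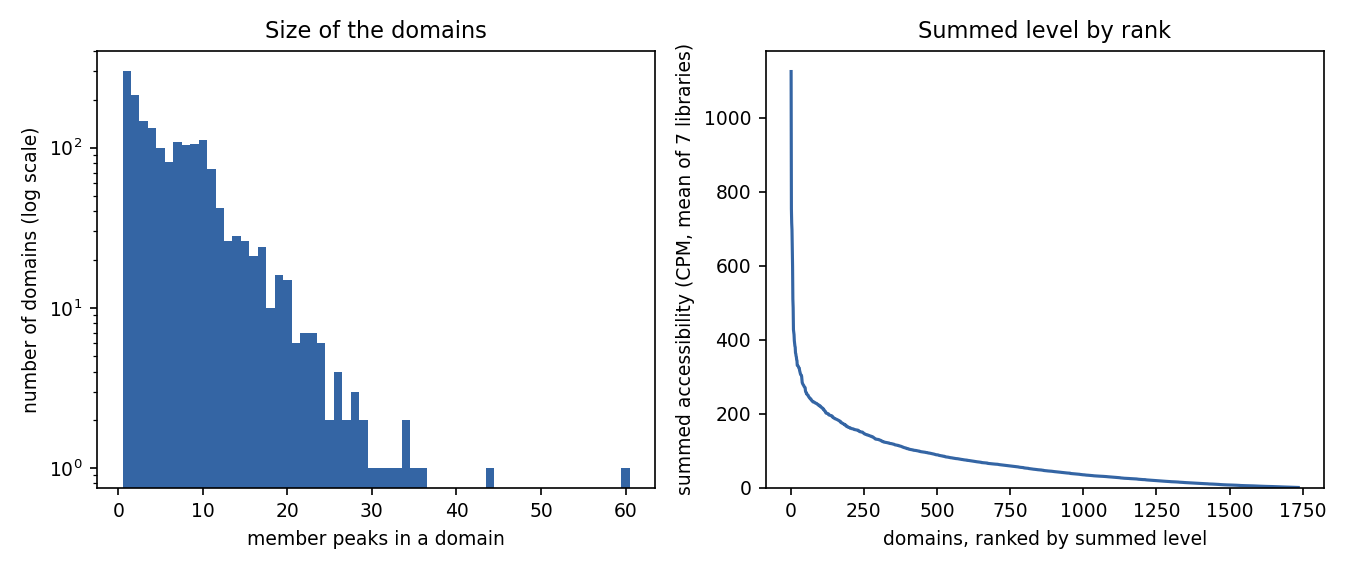
The left panel gives the number of domains (log scale) by the number of member peaks, and the right panel the summed level of each domain in CPM (mean of 7 libraries) by rank. Most domains hold fewer than 10 members, the largest holds 60, and the summed level drops steeply from 1125 CPM.

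Chromosomes differed in how much of their open chromatin lay in dense clusters. On chromosome 11, 1174 of 6748 peaks were members (17.4%), followed by chromosome 17 with 16.2% and chromosome 7 with 15.8%. Chromosome 14 had the smallest share, 8.30%, beside chromosomes 16 and 3 with 8.39% each. Chromosome 11 also had the highest density of peaks of any kind, 56.8 per Mb, and 50 of the 442 domains of 10 or more members.

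The 6 domains with most members each lay on a different chromosome. The largest, at chr10:80748271-81043864, had 60 members over 295.6 kb and the highest summed level of all domains. Its summed CPM was 1388, 1088, 1037 and 1044 in controls 1 to 4, and 1058, 1126 and 1134 in Runx3 1, 3 and 4. Control 1 was the highest of the 7 libraries, and the other controls and the Runx3 libraries overlapped or lay close together. Its log2 fold change was -0.04 ± 0.08 (SE), and 23 of its 53 tested members were higher and 30 lower with Runx3. Without control 1 the log2 fold change was 0.07 ± 0.05 (SE). The strongest of the 60, at chr10:80755238-80756308, held only 8.43% of the sum, so this domain was a row of sites of mixed strength.

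The second largest domain, at chr13:23502978-23678065, had 44 members over 175.1 kb. Control values were 668, 685, 722 and 640 CPM and Runx3 values 573, 678 and 604 CPM, so the groups overlapped. Of its 35 tested members 28 were lower and 7 higher, with 0 at an unadjusted p under 0.05, and the domain's log2 fold change was -0.13 ± 0.08 (SE, edgeR adjusted p = 0.68).

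The third, at chr2:32342653-32502612, had 36 members and nearly equal group means of 510.0 ± 46.7 CPM in controls (SD, n = 4) and 509.6 ± 11.1 CPM with Runx3 (SD, n = 3). A domain of 35 members at chr17:34067996-34290584 had 699.8 ± 54.9 and 694.1 ± 62.9 CPM, and one of 34 members at chr8:73203258-73417840 had 725 ± 93.5 and 702 ± 5.90 CPM. In these 3 domains control 1 was the highest control, at 579, 782 and 865 CPM. Another domain of 34 members, at chr11:117161168-117285341, was the one of the 6 whose groups did not overlap. Its control values were 252, 237, 250 and 234 CPM and its Runx3 values 229, 213 and 196 CPM. The difference did not pass the test (log2 fold change -0.19 ± 0.09 SE, edgeR adjusted p = 0.53), although 4 of its 20 tested members were lower at an unadjusted p under 0.05.

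By summed level, the second strongest domain was at chr11:68849463-68948183, with 29 members within 98.7 kb. It varied little, at 750, 774, 761 and 759 CPM in controls and 708, 770 and 754 CPM with Runx3. Its coefficient of variation over the controls was 1.32%. The highest levels per kilobase of peak belonged to small domains whose strongest site made up nearly all of the sum. The first, at chr13:30077037-30078638, had 2 members and 91.5 CPM per kb, and the next, at chr5:125867804-125868551, was a single member with 88.0 CPM per kb. The latter had 67.2, 58.5, 83.6 and 75.7 CPM in controls and 37.1, 68.4 and 70.6 CPM with Runx3, so that Runx3 1 alone was low.

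Larger domains repeated more closely between control libraries. Sums over more peaks hold more reads and so carry less counting noise, and the part of this was not tested. The median coefficient of variation over the 4 controls was 10.7% for all tested domains and 6.86% for those of 10 or more members. The steadiest was at chr5:113543219-113610725, with 17 members and 203, 202, 203 and 202 CPM in controls. Its Runx3 values of 184, 187 and 190 CPM lay below all controls, and the difference did not pass (log2 fold change -0.11 ± 0.09 SE, edgeR adjusted p = 0.79). The domain was named for its narrow control range, which makes groups without overlap easier to reach. At the other end, a domain of 2 members at chr19:24527010-24528314 had 2.04, 3.48, 22.0 and 7.42 CPM in controls, and control 3 alone was high. A domain of 3 members at chr3:9420902-9428092 had 18.3, 11.2, 2.60 and 4.0 CPM, high in the controls of set 1 and low in those of set 2.

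The comparison between vectors asked which domains differ in accessibility in stem cells carrying Runx3. No domain passed the test when its members were summed. Counts of the 1735 domains and of every other peak were fitted together with edgeR's quasi-likelihood test, and 1628 domains passed the low-count filter. Of the 107 that did not, 96 had 1 member. At an adjusted p under 0.05, 0 domains were higher and 0 lower, where 0.0706% of all 51006 rows of this table were called, 0.0333% higher and 0.0373% lower. The smallest adjusted p of a domain was 0.157. At an unadjusted p under 0.05 there were 51 higher and 64 lower domains, 115 in all or 7.06%, beside 8.24% of all rows (3.89% higher and 4.35% lower). The same threshold gave 62 domains in DESeq2, which was run without the low-count filter, 3.57% of all 1735 beside 3.28% of 88854 rows. In limma-voom it gave 124 domains, 7.62% of the 1628 beside 7.90% of all 51006 rows. Both tools called 0 domains after adjustment. Groups did not overlap in 132 domains, or 8.11%, beside 8.87% of all rows.

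Fold changes of domains were small and their intervals narrow. The median log2 fold change was -0.01 for domains and -0.01 for all rows, with 769 domains higher and 859 lower. From the 5th to the 95th percentile, domains ran from -0.34 to 0.31, and those of 10 or more members from -0.19 to 0.16. The median standard error was 0.13 for domains, 0.10 for those of 10 or more members and 0.27 for the other single peaks. The approximate 95% interval of the fold change, taken domain by domain, lay within 1.5-fold in either direction for 1256 of the 1628 domains, and for 439 of the 442 with 10 or more members. All 941 domains of 5 or more members had intervals within 2-fold. In most large domains a change of the summed accessibility beyond 1.5-fold therefore lay outside the interval.

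**Figure D2:**
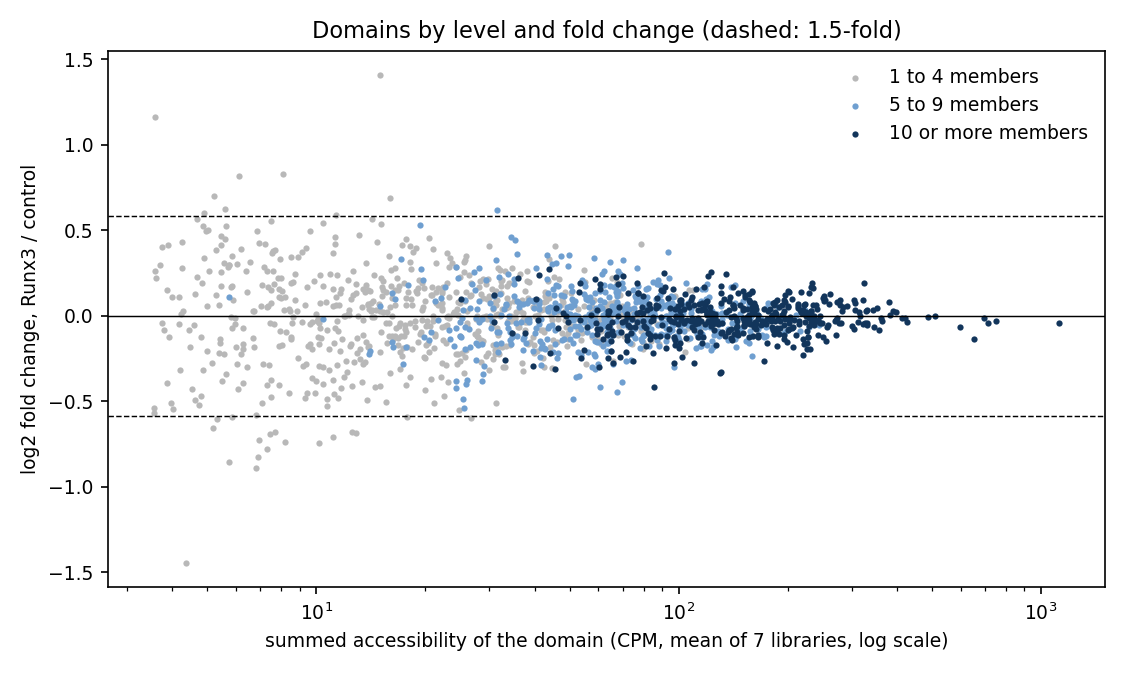
Each point is one of the 1628 tested domains, with the summed level in CPM (log scale) against the log2 fold change with Runx3, coloured by the number of members. Domains of 10 or more members all lie within the dashed 1.5-fold lines, and the widest fold changes belong to weak domains of 1 to 4 members.

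Of the 5 domains with the smallest p on the higher side, 0 passed, so their values are given as a description. They were chosen for their difference, which also fixes the direction of most of their members. At chr3:8971669-8984219, a domain of 4 members had 56.0, 71.2, 68.5 and 77.1 CPM in controls and 95.3, 88.9 and 92.6 CPM with Runx3. All Runx3 libraries lay above all controls, by 0.42 ± 0.11 on the log2 scale (SE, edgeR adjusted p = 0.17), and 3 of its 4 tested members were higher.

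At chr6:54008780-54043246, 6 members summed to 17.3, 29.4, 23.4 and 31.1 CPM in controls and 43.3, 41.1 and 35.1 CPM with Runx3 (log2 fold change 0.62 ± 0.16 SE). A second domain of chromosome 3, at chr3:37603807-37634497, had 9 members and 82.8 ± 6.43 CPM in controls (SD, n = 4) and 107.8 ± 3.19 CPM with Runx3 (SD, n = 3). All 6 of its tested members were higher, between 0.20 and 0.45 on the log2 scale, and no single member carried the sum: the strongest gave 24.4%. The remaining 2 were a domain of 3 members at chr1:90986373-90998875, with 12.4 ± 2.69 and 20.7 ± 2.77 CPM, and a domain of 6 members at chr11:61472801-61498063, with 29.6 ± 5.54 and 41.1 ± 2.01 CPM. In each of these 5 domains the groups did not overlap.

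On the lower side, the domain with the smallest p was at chr17:44791262-44859515, with 14 members over 68.3 kb. It had 88.1, 105, 98.9 and 91.1 CPM in controls and 76.7, 70.0 and 69.2 CPM with Runx3 (log2 fold change -0.42 ± 0.11 SE, edgeR adjusted p = 0.157). All 5 of its tested members were lower. Its strongest member, at the first edge of the domain, chr17:44791262-44792273, had 27.4 ± 3.10 CPM in the controls and 16.3 ± 6.24 CPM in the Runx3 libraries (SD) and did not pass by itself (edgeR adjusted p = 0.14).

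The other 4 also missed the threshold. At chr4:149839934-149860519, a domain of 3 members had 30.6, 32.5, 30.4 and 31.4 CPM in controls and 22.9, 19.3 and 20.2 CPM with Runx3, with little spread inside each group and no overlap (log2 fold change -0.60 ± 0.16 SE). The domain of 8 members at chr18:56868415-56905080 had 67.8 ± 7.42 and 51.1 ± 2.66 CPM, and all 4 tested members were lower. The domain of 6 members at chr11:46256642-46280848 had 58.0 ± 9.74 and 42.2 ± 8.67 CPM, and here the groups overlapped, because Runx3 1 with 52.0 CPM lay above control 1 and control 4. The domain of 19 members at chr13:37543366-37629866 had 143.9 ± 11.7 and 114 ± 5.85 CPM without overlap. Member log2 fold changes ran from -1.95 to 0.66, which was the widest spread among the 217 domains with 10 or more tested members (SD 0.68). The lowest of them, at chr13:37598409-37598629, had 26.8, 13.6, 0.582 and 1.44 CPM in controls and 6.86, 0.422 and 0.908 CPM with Runx3, so it was high in the 3 libraries of set 1 and low in the 4 of set 2, with either vector. Its means of 10.6 CPM in controls and 2.73 CPM with Runx3 enter the domain's sums, so the domain's difference rests partly on this member. The domain was not tested without it. A member 2 kb further on, at chr13:37600867-37601695, had 17.04, 14.8, 18.3 and 17.3 CPM in controls and 8.11, 10.1 and 8.62 CPM with Runx3. There the Runx3 values lay below the controls in both sets.

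**Figure D3:**
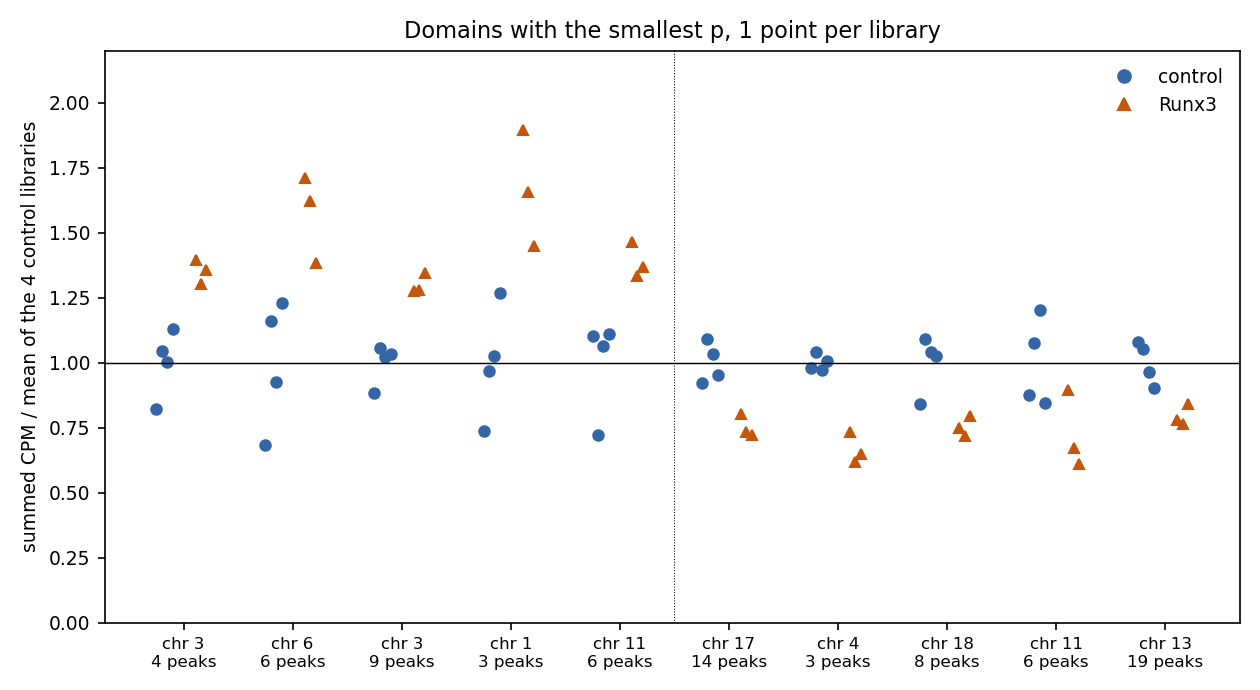
Summed CPM of the 10 domains with the smallest p, divided by the mean of the 4 control libraries, with 1 point per library (circles control, triangles Runx3). The 5 domains on the left were higher and the 5 on the right lower with Runx3, the groups overlap in the second chromosome 11 domain only, and 0 of the 10 passed the test.

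Domains were called when single libraries were left out. Without control 1, edgeR called 1 higher and 8 lower domains, and 210 had an unadjusted p under 0.05, or 12.9%. Over all 50786 rows of that fit there were 63 higher and 182 lower calls, and 10.8% had an unadjusted p under 0.05. The higher one was the domain of 9 members at chr3:37603807-37634497 (edgeR adjusted p = 0.049). Of the 8 lower ones, 3 are among those above, on chromosomes 17, 18 and 11. The smallest adjusted p, 0.0046, belonged to a domain of 9 members at chr1:192910402-192945095. It had 55.0 CPM in control 1, 73.2, 98.6 and 77.1 CPM in the other controls and 47.6, 58.7 and 62.02 CPM with Runx3, so that control 1 lay among the Runx3 libraries. The same held at chr1:169175222-169219162, with 60.1 CPM in control 1, 84.4, 83.3 and 81.4 CPM in the other controls and 65.6, 59.6 and 54.8 CPM with Runx3. All 7 of its tested members were lower. The other 3 were at chr13:21250702-21265272, chr5:136099784-136102091 and chr11:32433882-32471632. These domains were singled out after their values were seen.

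Without Runx3 3, 1 domain was called higher, beside 26 higher and 2 lower over all 54735 rows, and it had the largest fold change toward higher values of all tested domains when all libraries were used. This domain, at chr11:53953505-53976882, had 4 members and 13.7, 6.58, 8.96 and 5.71 CPM in controls. Runx3 1 and Runx3 4 were high, with 37.1 and 28.3 CPM, and Runx3 3 was low, with 4.61 CPM, below all controls. With all libraries its log2 fold change was 1.41 ± 0.73 (SE, edgeR adjusted p = 0.71), and without Runx3 3 it was 1.94 ± 0.26 (SE, edgeR adjusted p = 0.00024). Adjacent members gave the signal: at chr11:53953505-53953892 there were 24, 5 and 32 reads in Runx3 1, 3 and 4, and at chr11:53953942-53954204 there were 28, 2 and 20. In the controls these peaks had at most 16 reads. This region too was singled out after its values were seen.

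Among single members, 4 passed the test. Of the 11604 members 8126 passed the low-count filter, 70.0%, where 58.2% of all peaks did. At an adjusted p under 0.05, edgeR called 1 member higher and 3 lower, 0.0492% of those tested, beside 0.0730% of all 57504 tested peaks (0.0330% higher and 0.0400% lower). At an unadjusted p under 0.05 there were 307 higher and 358 lower members, together 8.18%, beside 8.31% of all peaks (3.91% higher and 4.40% lower). Groups did not overlap in 728 members, or 8.96%, beside 8.94%. Each of these shares was near its background. These few calls depended on each library. When control 2, control 3, Runx3 1 or Runx3 4 was left out, 0 members were called, and when control 1 was left out there were 8 higher and 19 lower of 8112 tested, beside 73 higher and 194 lower of all 57271 peaks. DESeq2 and limma-voom called 0 members. DESeq2 was run without the low-count filter. At an unadjusted p under 0.05 it had 352 members, 3.03% of all 11604, beside 3.25% of all 98723 peaks. At the same threshold limma-voom had 629 members, 7.74% of the 8126 tested, beside 7.93% of all 57504 tested peaks.

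The member with the smallest p was lower with Runx3 and lay at the end of a domain of 24 members on chromosome 10. At chr10:74599911-74600405 it had 19.6, 21.8, 23.6 and 16.7 CPM in controls and 9.36, 10.96 and 5.45 CPM with Runx3. The groups were well apart, and the log2 fold change was -1.25 ± 0.24 (SE, edgeR adjusted p = 0.020). The domain around it, at chr10:74499560-74600405, had a log2 fold change of -0.06 ± 0.09 (SE), with 6 of its 13 tested members higher and 7 lower.

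The other 2 lower members lay in domains of 10 and 22 members. A member at chr5:121010360-121011549, just under the width limit, had 32.01, 36.2, 34.9 and 34.5 CPM in controls and 20.6, 23.6 and 15.9 CPM with Runx3. The difference was -0.78 ± 0.17 on the log2 scale, with an edgeR adjusted p of 0.046. Its control libraries were close together. In its domain of 10 members, 8 of 9 tested members were lower and the sum had a log2 fold change of -0.26 ± 0.09 (SE). At chr8:97497165-97497565 the values were 11.9, 11.7, 16.0 and 14.7 CPM in controls and 3.12, 6.75 and 6.35 CPM with Runx3 (log2 fold change -1.29 ± 0.27 SE, edgeR adjusted p = 0.046). This member gave 3.28% of the summed level of a domain of 22.

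The member called higher was near the floor of detection in controls. At chr11:108128535-108128904, controls 1 to 4 had 1, 3, 4 and 2 reads and Runx3 1, 3 and 4 had 11, 11 and 12. The groups were apart, with 0.856 ± 0.359 CPM in controls (SD, n = 4) and 5.65 ± 1.13 CPM with Runx3 (SD, n = 3). The ratio of pooled read rates was 6.28, with an exact 95% interval of 3.04 to 14.3 that covers counting error only. The log2 fold change was 2.60 ± 0.56 (SE, edgeR adjusted p = 0.049). Its domain of 10 members had a log2 fold change of -0.14 ± 0.12 (SE).

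**Figure D4:**
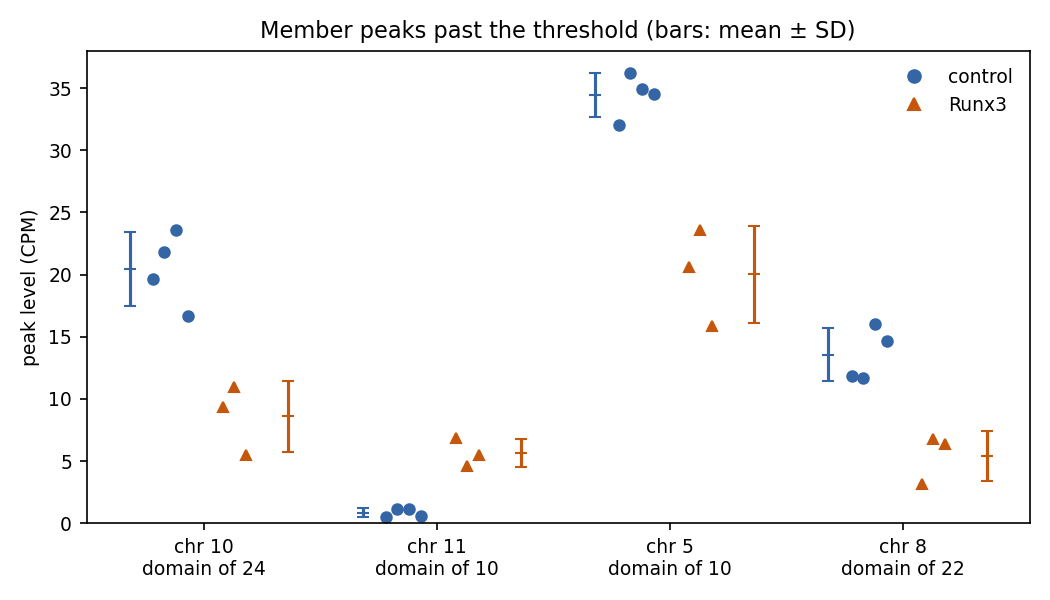
Level in CPM of the 4 members past the threshold, with 1 point per library (circles control, triangles Runx3) and bars for the mean ± SD (n = 4 and n = 3). In each the groups do not overlap, the chromosome 11 member is higher with Runx3 and the others are lower.

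Members that came next in each direction, with groups apart, did not pass. On the higher side they included chr10:120958002-120958539, with 7.15 ± 2.18 CPM in controls (SD, n = 4) and 15.2 ± 4.72 CPM with Runx3 (SD, n = 3), and chr2:164280442-164280657, with 1.70 ± 0.867 and 6.40 ± 0.826 CPM. A further pair lay in domains of chromosome 15. At chr15:103188724-103189619 the level was 29.9 ± 2.98 and 44.3 ± 2.47 CPM, in a domain of 25 members where 15 of 17 tested members were higher and the sum had a log2 fold change of 0.19 ± 0.08 (SE). At chr15:101091551-101092144 it was 13.1 ± 3.34 and 22.8 ± 0.939 CPM, in a domain of 18 members with 12 of 17 tested members higher. On the lower side, chr2:128120357-128121100 had 13.4 ± 2.45 and 5.45 ± 1.71 CPM and just missed the threshold (edgeR adjusted p = 0.0504). At chr6:72203757-72204746 the level was 11.8 ± 3.28 and 4.76 ± 1.37 CPM, and at chr11:117169111-117169628, inside the domain of 34 members on chromosome 11, it was 18.7 ± 2.68 and 9.71 ± 1.36 CPM.

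Members of a domain rarely differed all in the same direction. Among the 696 domains with 5 or more tested members, 7 had all of them higher with Runx3, 11 had all lower and 678 had both directions. Of the 217 domains with 10 or more tested members, 0 had all in 1 direction, and 13 had at least 80% in 1 direction. The median range of log2 fold changes within a domain of 5 or more tested members was 0.87, and the median SD was 0.28, against an SD of 0.11 between the summed values of the same domains. The median standard error of a single member was 0.26, so most of the spread inside a domain was of the size of the error of single peaks. For the sums of domains of 5 or more members it was 0.11. These SDs therefore differ in precision and do not show that members differ more than domains. In 60 domains some members were higher and others lower at an unadjusted p under 0.05. These counts were not made for runs of peaks that were not members, so they are not shown to be particular to domains. Among neighbouring peaks within 2 kb, 53.1% of member pairs had the same sign, beside 52.4% of pairs of other peaks. At 10 to 25 kb the shares were 50.1% and 52.0%.

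Log2 fold changes of neighbouring members were weakly correlated. Over 1980 pairs of tested members of the same domain lying within 2 kb, the correlation of log2 fold changes was 0.07, and over 832 pairs 10 to 25 kb apart it was 0.07. For neighbouring peaks that were not members these values were 0.13 over 4893 pairs and 0.07 over 11380. The contrast of controls 3 and 4 against controls 1 and 2 does not involve the vector. It does follow the split into library sets, and controls 3 and 4 were also the deeper libraries. This contrast gave 0.09 for members within 2 kb and 0.07 at 10 to 25 kb, and 0.12 and 0.03 for peaks that were not members. All pairs share the same 7 libraries and read noise lowers each value, so these correlations are descriptions across sites.

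**Figure D5:**
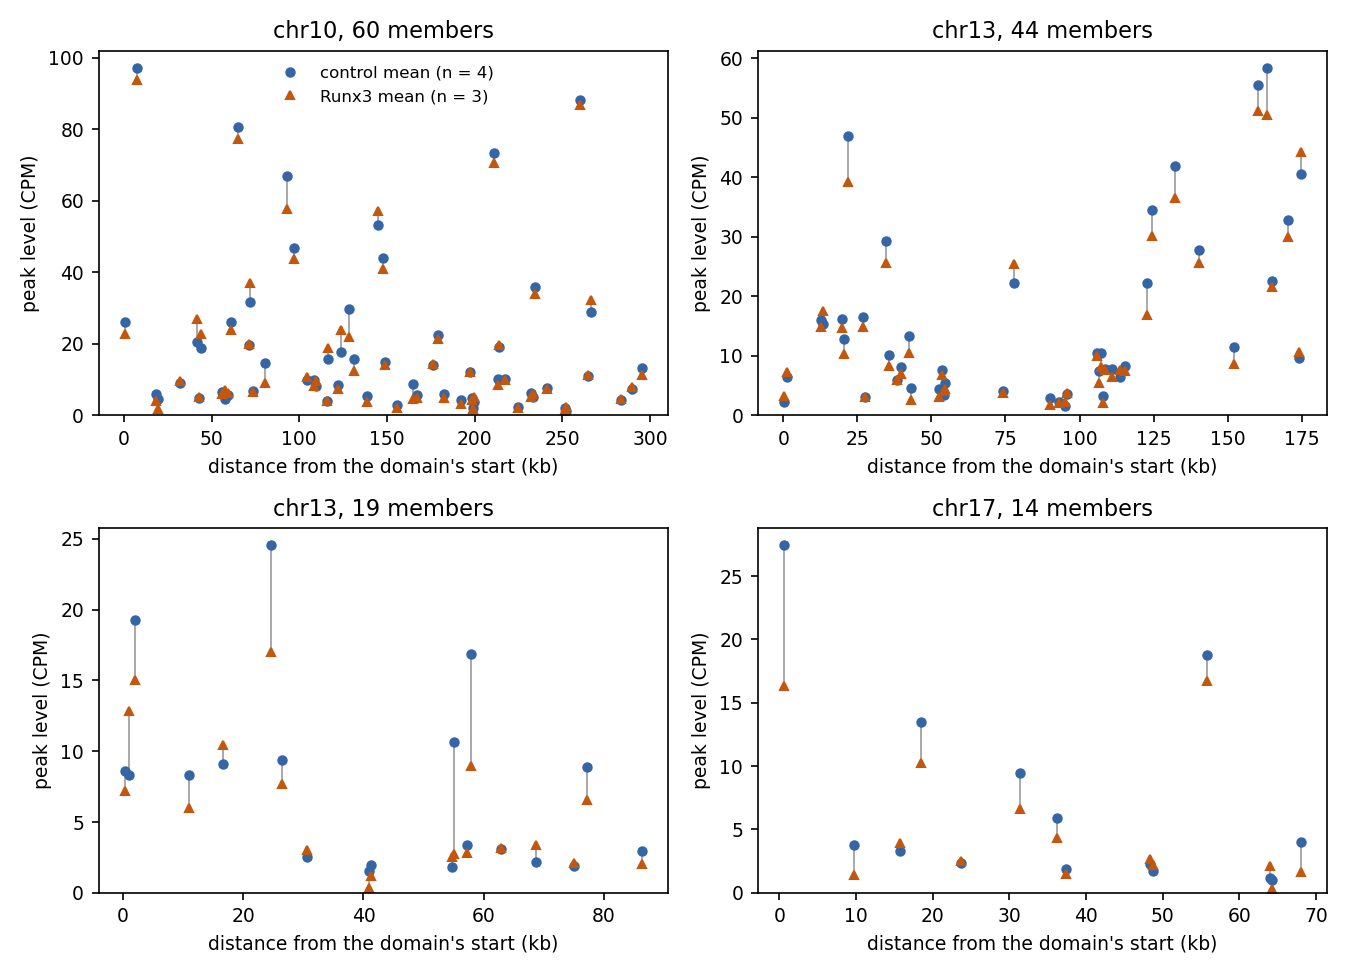
Level of each member in CPM (circles control mean, n = 4; triangles Runx3 mean, n = 3; grey lines join the means) by distance in kb from the start of its domain, for 4 domains. In the domains of 60 and 44 members the means nearly coincide at most sites, and in those of 19 and 14 members the wider differences sit at a few sites. In the domain of 19 members these include chr13:37598409-37598629, which was high in set 1 and low in set 2.

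At like levels, members and other narrow peaks had like dispersions in edgeR's fit. The fit draws each peak's dispersion toward a trend over level that all peaks share. Like medians are therefore partly built in, and they do not measure whether the classes vary alike. Between 8 and 16 CPM the median biological coefficient of variation, the square root of edgeR's dispersion, was 13.2% for 2837 members and 13.4% for 13532 other narrow peaks, and between 32 and 64 CPM it was 9.77% and 9.80%. The SD of log2 fold changes was 0.31 and 0.35 in the first of these ranges and 0.16 and 0.17 in the second. It was lower for members in every range examined, and between 64 and 128 CPM it was 0.099 for 118 members and 0.125 for 576 other narrow peaks. Across density classes, the share of tested members with an unadjusted p under 0.05 was 8.05% with 8 neighbours, 8.28% with 9 or 10, 7.43% with 11 or 12 and 10.2% with 13 or more, and no test was made of these differences.

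The sets of libraries share no library, so the difference between vectors could be read separately in each. Across the 1628 tested domains, the correlation of the log2 ratio in set 1 with that in set 2 was 0.15, and 54.9% of domains had the same sign in both. For the 941 domains of 5 or more members the values were 0.20 and 56.6%. These are descriptions across domains, which share the same libraries within each set. All 49378 other single peaks tested had a correlation of 0.16 and 53.5% with the same sign, near the values of all tested domains. The 2778 single peaks as strong as the middle range of the domains of 5 or more members, between 56.8 and 152 CPM, had -0.00 and 40.5%. They were not limited to narrow peaks. Between 64 and 128 CPM there were 576 other narrow peaks, and the 5048 broad peaks had a median of 48.5 CPM and a 90th percentile of 94.8 CPM. The comparison is therefore not one of like sites. The median log2 ratio of these single peaks was -0.13 in set 1 and 0.05 in set 2, where the domains of those levels had -0.01 in both. Set 1 holds control 1, the library with most counts in broad peaks, and the part of this library in these values was not tested.

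The share of all counts that fell in dense-cluster members was nearly constant. It was 11.6%, 11.7%, 11.7% and 11.9% in controls 1 to 4 and 11.8%, 11.7% and 11.6% in Runx3 1, 3 and 4. The means were 11.7% ± 0.129 (SD, n = 4) and 11.7% ± 0.0633 (SD, n = 3), and the groups overlapped (two-sided exact permutation p = 1.0, where 0.0571 is the smallest p that the 35 ways of choosing 3 of 7 libraries allow). Within set 1 the Runx3 share was 0.125 percentage points above the control mean, and within set 2 it was lower, by -0.110 points. Isolated narrow peaks held 4.21% ± 0.162 (n = 4) and 4.34% ± 0.132 (n = 3) of counts (exact permutation p = 0.40), and broad peaks 25.2% ± 1.06 (n = 4) and 24.8% ± 0.625 (n = 3) (exact permutation p = 0.63). Over the 4 classes compared in this way, including the other narrow peaks, adjusted p-values were 1.0 for members and 0.838 for the rest (exact permutation tests, Benjamini-Hochberg).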

How the data were processed

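The authors deposited whole-number read counts, not normalized, for 98723 peaks in 7 libraries. The submitters' processing notes name the mm9 build and the tools Bowtie2, MACS2, Picard, SAMtools, FastQC and Trim Galore. Roles and versions were not given in the sources used here. The same holds for the making of the joint peak set and for a transposase shift of the reads. The table does not say whether starts count from 0 or 1. Peaks called on pooled reads would let deeper libraries weigh more on which sites are listed.

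The test was that of edgeR 4.0.16, run in R 4.3.3 (filterByExpr with a minimum count of 10 and minimum total of 15, TMM, robust quasi-likelihood test over all 7 libraries without a block, Benjamini-Hochberg adjustment over the whole table, threshold 0.05). For domains, members were replaced by 1 summed row per domain and all other peaks stayed as single rows. CPM follow each table's own scaling. The standard error was the fold change divided by the square root of F, and intervals use it with edgeR's degrees of freedom. Reads had no molecular identifiers, so the interval of a read ratio covers counting error only. Scripts were tested on simulated data. Alternatives included DESeq2 1.42.0 and limma 3.58.1. Every pair of libraries within a group differed by more than sampling noise (chi-square over its degrees of freedom from 1.18 to 2.25).

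The members, the lists and the library sets were chosen with earlier results of these data known. Domains were named by smallest p (5 per direction), most members (6), highest summed level and level per kb (5 each) and largest and smallest variation over controls (3 each). Members were named when called, or among the 6 per direction with the smallest p and groups apart, at most 1 per domain, or as the strongest of a named domain. Others were singled out after their values were seen.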

Additional observations from a re-analysis of the deposited data

Results flagged for a closer look

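Values of the 4 controls were examined for 1 library far from the other 3, for 4 shares of counts, the named domains and the named members. Of 60 values 9 stood out. Chance flags about 1 in 20 groups, but this share does not apply here, since some domains were named for their variation over these controls and the values are not independent. In 7 of the 9 the library was control 1. It had the lowest share of counts in other narrow peaks, 59.8% against 61.498% to 61.7%, and the highest in broad peaks, 26.7% against 24.5% to 24.8%. It stood above the other controls in this way in 4 of the 6 domains with most members: 1388 CPM against 1037 to 1088 at chr10:80748271-81043864, 579 against 482 to 495 at chr2:32342653-32502612, 782 against 665 to 681 at chr17:34067996-34290584, and 865 against 665 to 686 at chr8:73203258-73417840. At chr17:56970209-56971138, a single member with a high level per kb, it had 102.3 CPM against 61.95 to 66.5. Control 2 had the lowest level at chr11:61472801-61498063, 21.3 CPM against 31.5 to 32.8. Control 4 had the lowest at chr2:165700363-165700821, a domain named for its variation over the controls, 0.856 CPM against 5.78 to 6.11.

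Among the 3478 members left out by the low-count filter, 0 had a Runx3 library with at least 10 reads and a level 8-fold above every control, and 1 had the reverse.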

How the results depend on the processing

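The counts of called members (1 higher and 3 lower) and called domains (0 and 0) were near the limit of the test, so single calls moved them. For members, edgeR called 1 lower without TMM, 0 higher and 1 lower with a mean count of at least 20 or without robust estimation, and 2 higher and 6 lower with the log2 total count as covariate. Over all peaks tested, edgeR called 19 higher and 23 lower in the main fit, and 33 and 51 with the covariate. These numbers were 20 and 19 without TMM, 6 and 11 under the limit of 20, and 8 and 10 without robust estimation. DESeq2 and limma-voom called 0 and 0 members, beside 2 higher and 1 lower peaks in DESeq2 and 5 and 0 in limma-voom. With any 1 library left out, higher members numbered 0 to 8, lower members 0 to 19, higher domains 0 to 1 and lower domains 0 to 8, with each maximum reached without control 1 and that of higher domains also without Runx3 3. For domains, 2 were lower with the same covariate, beside 29 higher and 45 lower over all rows. When members were merged within 10 kb, 1 domain was lower, beside 17 higher and 19 lower over all rows. The median log2 fold change over domains was -0.00962 with all libraries. It was 0.00356 without TMM, -0.0193 without the low-count filter, -0.000953 with a mean count of at least 20, -0.0198 in DESeq2, -0.0228 with the covariate and -0.0155 with other peaks merged as well, and it ran from -0.0128 to -0.00192 when 1 library was left out. The share of counts in dense-cluster members, Runx3 minus control, was -0.0024 percentage points. It was 0.0387 over tested peaks only and 0.125 within set 1, and ran from -0.0557 to 0.0492 when 1 library was left out. The cause was not tested. With the library set as a term 1 member was higher and 4 lower, beside 22 higher and 29 lower over all peaks.

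The replicate numbers did not meet the rule for pairing, since the correlation of deviations was 0.13, 0.11 and 0.07 for numbers 1, 3 and 4. Each Runx3 library correlated best with the control of its number, and control 4 correlated best with Runx3 3 (0.10). With a replicate block, 1 member was higher and 2 lower, beside 30 higher and 71 lower over all peaks. In that fit 0 domains were called, beside 32 higher and 76 lower over all rows of the domain table.

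Single members were measured less precisely than domains. The median standard error was 0.26 on the log2 scale for a tested member and 0.13 for a tested domain, and 3478 members were too weak to test. The parts of depth and of spread between libraries in these errors were not tested.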
